A study of Homo sapiens with 9 samples.

Results

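The AP-1 family examined here comprised 9 genes, chosen by name: JUN, JUNB, JUND, FOS, FOSB, FOSL1, FOSL2, BATF and BATF3. All 9 were found among the 26929 genes of the deposited expression table. The cells were MV4-11, an established human acute myeloid leukaemia line that carries an MLL fusion and an activated FLT3 receptor. They were treated for 24 h with JPX-0750, for 24 h with JPX-0700, or for 24 h with the vehicle DMSO, with 3 libraries in each of the 3 groups. The study's title describes degraders with specificity for both STAT3 and STAT5, and the labels give no dose. They do not say whether replicates were separate cultures, so p-values measure only the spread between these samples, which may be technical. Libraries were made with a kit that reads the 3′ end of polyadenylated RNA.

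AP-1 is a transcription factor built from pairs of basic leucine zipper proteins. JUN proteins can pair with one another or with FOS proteins, FOS proteins need a JUN partner, and BATF proteins pair with JUN proteins and, in lymphoid and dendritic cells, join IRF factors on composite sites. JUN and FOS are immediate early genes, whose transcripts appear within minutes of growth factor or stress signals through the MAP kinases and are short lived. In myeloid cells AP-1 takes part in monocyte and macrophage differentiation and in the expression of cytokines.

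The windows of 250 bases before the annotated starts of JUN, FOS and FOSB are shown because these 3 genes rose with both compounds, and that of JUND because it had a complete CRE but did not pass the test. Capitals mark a match on either strand to the CRE (TGACGTCA), to its half-site TGACGT (which reads as ACGTCA when it lies on the other strand), or to the 8-base element TGACATCA known from the JUN promoter, where JUN and ATF2 bind. The sequences are from RefSeq (GRCh38.p14), read 5′ to 3′ along the gene's strand.

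JUN (chr1:58784048-58784297, minus strand): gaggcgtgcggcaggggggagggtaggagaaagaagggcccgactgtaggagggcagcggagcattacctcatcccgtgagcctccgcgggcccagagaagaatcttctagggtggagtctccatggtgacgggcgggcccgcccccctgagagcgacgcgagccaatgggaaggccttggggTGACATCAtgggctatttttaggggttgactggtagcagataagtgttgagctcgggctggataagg

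FOS (chr14:75278578-75278827, plus strand): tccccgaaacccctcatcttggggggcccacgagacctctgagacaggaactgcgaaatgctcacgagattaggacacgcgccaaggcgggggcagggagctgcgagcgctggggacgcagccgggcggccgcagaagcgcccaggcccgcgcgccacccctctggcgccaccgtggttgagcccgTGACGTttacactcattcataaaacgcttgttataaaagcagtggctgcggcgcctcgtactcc

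FOSB (chr19:45467746-45467995, plus strand): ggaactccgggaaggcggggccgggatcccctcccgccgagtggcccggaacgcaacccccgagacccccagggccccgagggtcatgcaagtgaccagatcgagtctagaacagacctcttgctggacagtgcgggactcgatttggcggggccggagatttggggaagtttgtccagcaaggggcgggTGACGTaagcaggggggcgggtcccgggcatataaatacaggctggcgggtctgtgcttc

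JUND (chr19:18281623-18281872, minus strand): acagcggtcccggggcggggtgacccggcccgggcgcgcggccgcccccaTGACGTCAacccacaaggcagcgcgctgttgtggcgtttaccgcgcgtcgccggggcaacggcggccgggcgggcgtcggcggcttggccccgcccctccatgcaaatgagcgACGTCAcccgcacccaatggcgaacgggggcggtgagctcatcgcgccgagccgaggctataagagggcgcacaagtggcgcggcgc

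Windows were found for 7 of the 9 members, all but FOSL1 and BATF3. The CRE half-site lay at -64 to -59 in FOS, -60 to -55 in FOSB and -66 to -61 in FOSL2, counted from the start of the gene, so that it had nearly the same place in all 3. JUND had the full CRE at -200 to -193, which contains the half-site on both strands, and a further half-site at -87 to -82. The half-site was thus present in 4 of the 7 windows, against 7.10% of all 35116 windows searched, and the full CRE in 1, against 1.65%. The JUN element lay at -67 to -60 and was present in 2.38% of all windows. The AP-1 site itself (TGACTCA) was in none of the 7 windows and in 4.20% of all, the GAS motif bound by STAT proteins (TTCNNNGAA) in none and in 6.57%, the CArG box of SRF in none and in 1.16%, and the heat shock element in none and in 0.441%. The TATAAA motif was in JUNB, FOS and FOSB (10.7% of all windows) and the CCAAT motif in JUN, JUNB and JUND (32.0%). A match of letters is a description of the window, not a bound site. Sequence further upstream was not searched. The absence of the GAS motif or the CArG box from a window therefore does not show that the gene lacks such a site.

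Libraries held 726043 to 1941860 reads on genes with JPX-0750, 739418 to 1852375 with JPX-0700 and 2701317 to 6305586 with DMSO. A read was worth 1.67 to 4.55 normalised counts with JPX-0750, 2.78 to 4.61 with JPX-0700 and 0.383 to 0.898 with DMSO. These values did not follow depth alone. They were 1.67 in JPX-0750 replicate 3 (1941860 reads) and 2.78 in JPX-0700 replicate 3 (1852375 reads). One library of each group, namely JPX-0750 replicate 3, JPX-0700 replicate 3 and DMSO replicate 1, had the fewest genes detected in its group. Structured noncoding RNAs took 11.9% ± 1.38 (SD, n = 3) of reads with JPX-0750, 8.98% ± 0.994 with JPX-0700 and 0.119% ± 0.102 with DMSO, and the nuclear transcript MALAT1 accounted for 6.15% ± 2.72 with JPX-0750, 6.03% ± 2.18 with JPX-0700 and 0.387% ± 0.191 with DMSO. Either compound against DMSO gave p = 0.1 for both shares (exact permutation over libraries, two-sided), and 3 against 3 libraries allow no smaller p. The part of these shares in the results below was not tested. Of 11 myeloid markers, 9 had reads with JPX-0750 (2009 to 4058 normalised counts in sum), 9 with JPX-0700 (2545 to 4032) and 10 with DMSO (5595 to 8905), and CD14, a monocyte marker, was at 0 throughout. LYZ, which encodes lysozyme, made up most of the difference, and without it the sums were 1208 to 1337 with JPX-0750, 1129 to 1394 with JPX-0700 and 1528 to 1665 with DMSO. MEIS1, a homeobox gene of MLL leukaemias, had 503, 473 and 297 normalised counts with JPX-0750, 272, 730.5 and 172 with JPX-0700, and 200.2, 120.4 and 166 with DMSO, so that its JPX-0750 libraries all lay above its DMSO libraries and its JPX-0700 libraries overlapped them. MPO had 1, 0 and 0 reads with JPX-0750, 0 throughout with JPX-0700, and 0, 38 and 23 with DMSO. HOXA9 had 0 reads throughout with JPX-0750, 1, 1 and 0 with JPX-0700, and 0, 0 and 3 with DMSO, and so was near the floor in every group. The summed levels of markers of other cells reached at most 108 normalised counts. Those of T and NK cells were 3.33 to 68.2 with JPX-0750, 22.4 to 80.6 with JPX-0700 and 32.3 to 52.1 with DMSO, and those of B and plasma cells 0 to 27.3 with JPX-0750, 5.56 to 23.0 with JPX-0700 and 2.30 to 17.1 with DMSO. Epithelial markers summed to 18.2 to 24.0 with JPX-0750, 0 to 27.7 with JPX-0700 and 28.5 to 53.7 with DMSO, with EPCAM and KRT19 at 0 in all libraries. Fibroblast markers summed to 9.10 to 108 with JPX-0750, 5.56 to 23.0 with JPX-0700 and 0 with DMSO, and erythroid markers to 0 to 3.42 with JPX-0750 and 0 in both other groups. In bulk RNA, fewer cells that express a gene and less RNA per cell cannot be told apart.

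JUN, FOS and FOSB were far higher with either compound than with DMSO, while JUNB, JUND, FOSL1, FOSL2, BATF and BATF3 did not pass the test. Tests used limma on log2(normalised count + 1) over the 12301 genes with a mean of at least 5, a filter that all 9 members passed, and "rose" below means a Benjamini-Hochberg adjusted p under 0.05 over those genes. With JPX-0750, 3 of 9 members rose and 0 fell, against 3.98% of all genes tested that changed, 3.90% that rose and 0.0732% that fell. With JPX-0700, 3 of 9 rose and 0 fell, against 5.77% that changed, 5.28% that rose and 0.496% that fell. The members were chosen with earlier results of these data known, so shares of members, here and below, are descriptions only. The median log2 fold change of the members was 1.44 with JPX-0750 and 1.98 with JPX-0700, beside 0.26 and 0.14 over all genes tested. Both comparisons share the same 3 DMSO libraries, so their values are given side by side and are not independent.

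**Figure D1:**
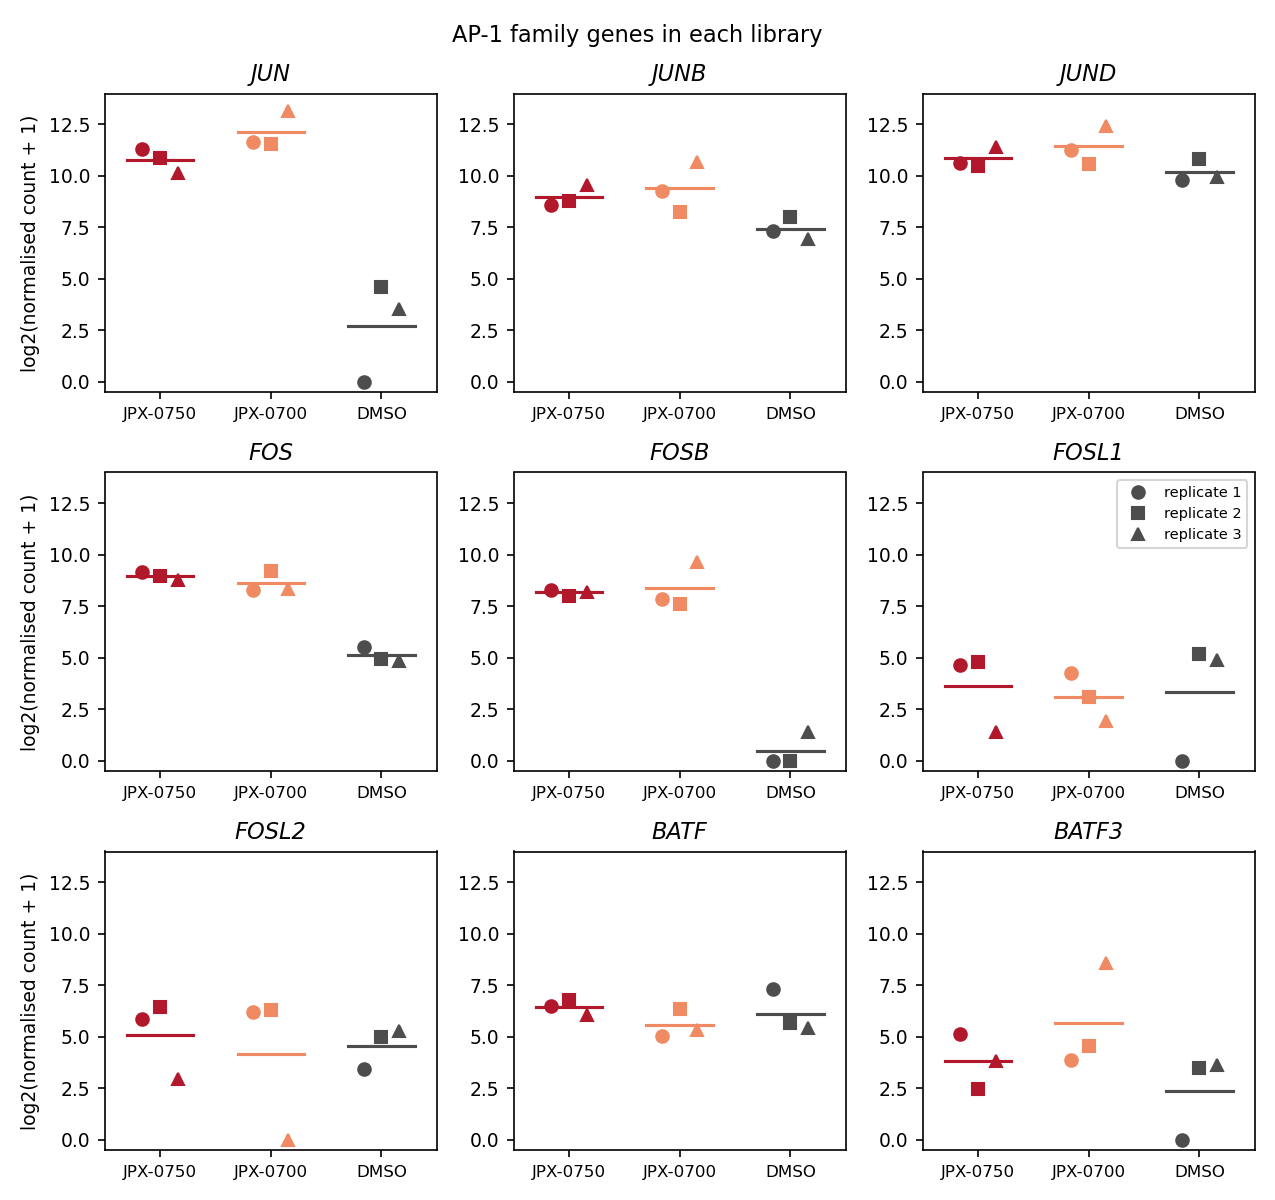
Level of each AP-1 family gene in each of the 9 libraries, as log2(normalised count + 1), with JPX-0750, JPX-0700 and DMSO from left to right. Points are libraries, shaped by replicate number, and lines are group means. On this scale all 6 treated libraries lie above all 3 DMSO libraries for JUN, FOS, FOSB and JUNB, and the groups overlap for JUND, FOSL1, FOSL2 and BATF.

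JUN encodes the founding JUN protein, the partner of most AP-1 dimers and a substrate of the JNK kinases. Its normalised counts were 2492, 1887 and 1128 in the 3 JPX-0750 libraries (728, 415 and 677 reads), 3249, 2967 and 8951 in the JPX-0700 libraries (705, 796 and 3221 reads), and 0, 23.0 and 10.8 in the DMSO libraries (0, 60 and 20 reads). Every treated library lay far above every DMSO library, and the 3 JPX-0750 libraries lay below the 3 JPX-0700 libraries. JUN rose 266-fold with JPX-0750 (log2 fold change 8.06 ± 0.85 SE, 95% interval 6.27 to 9.84, limma adjusted p = 5.1e-06) and 674-fold with JPX-0700 (9.40 ± 0.85, 7.61 to 11.2, adjusted p = 6.54e-07). These sizes rest on few DMSO reads. Without DMSO replicate 1, which had no JUN read, the log2 fold change was 6.70 with JPX-0750 and 8.04 with JPX-0700, and without DMSO replicate 2 it was 8.99 with JPX-0750 and 10.33 with JPX-0700. Scaled only by the total of reads on genes, JUN had 681, 572 and 349 RPM with JPX-0750, 953, 892 and 1739 RPM with JPX-0700, and 0, 9.52 and 4.96 RPM with DMSO, and the groups were separated in the same way. The gene lies on chromosome 1 (58780791 to 58784047 in GRCh38, minus strand) and overlaps no other annotated gene.

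JUNB encodes a JUN protein that often counters JUN in proliferation and restrains myeloid expansion in mice. It had 387, 437 and 751 normalised counts with JPX-0750, 613, 302 and 1645 with JPX-0700, and 158, 257 and 121 with DMSO. In these counts all 6 treated libraries were above all 3 DMSO libraries, by a far smaller margin than for JUN. Scaled only by the total of reads on genes, both compounds overlapped DMSO. JUNB then had 105.7, 132 and 232 RPM with JPX-0750, 180, 90.8 and 320 RPM with JPX-0700, and 65.2, 106.3 and 55.8 RPM with DMSO. The log2 fold change was 1.56 ± 0.59 with JPX-0750 (0.31 to 2.81, limma adjusted p = 0.2) and 1.98 ± 0.59 with JPX-0700 (0.73 to 3.23, adjusted p = 0.0603). With JPX-0700 the value was 2.55 (adjusted p = 0.0137) without JPX-0700 replicate 2, whose level was the lowest of that group, 1.33 (adjusted p = 0.106) without JPX-0700 replicate 3, whose level was the highest, and 1.28 without the 3 libraries that detected the fewest genes. JUNB (chromosome 19, 12791486 to 12793315, plus strand) overlaps HOOK2 on the other strand, and no source used here states which strand was counted. HOOK2 had 99.3, 118 and 90.0 normalised counts with JPX-0750, 36.9, 55.9 and 672.5 with JPX-0700, and 25.1, 45.2 and 47.4 with DMSO. Its high value in JPX-0700 replicate 3 fell in the library where JUNB was highest too, and reads of one gene counted to the other cannot be told apart here.

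JUND encodes the JUN protein that is expressed steadily in most resting cells. It had 1561, 1451 and 2749 normalised counts with JPX-0750, 2479, 1550.4 and 5461 with JPX-0700, and 895, 1814 and 989 with DMSO. DMSO replicate 2 lay above JPX-0750 replicates 1 and 2 and above JPX-0700 replicate 2, so the groups overlapped. The log2 fold change was 0.65 ± 0.49 with JPX-0750 (-0.38 to 1.68, limma adjusted p = 0.576) and 1.24 ± 0.49 with JPX-0700 (0.21 to 2.26, adjusted p = 0.165), and that with JPX-0700 was 0.55 without the 3 libraries that detected the fewest genes. JUND (chromosome 19, 18279694 to 18281622, minus strand) was also the member with the most DMSO reads, 7565 in all.

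FOS encodes the founding FOS protein, which cannot pair with itself and binds DNA with a JUN partner. Its normalised counts were 568, 500.2 and 438 with JPX-0750 (166, 110 and 263 reads), 313, 596 and 322 with JPX-0700 (68, 160 and 116 reads), and 45.8, 29.9 and 28.0 with DMSO (51, 78 and 52 reads). Treated and DMSO libraries did not overlap, and the lowest treated library had several times the level of the highest DMSO library. FOS rose 14.4-fold with JPX-0750 (log2 fold change 3.85 ± 0.56, 2.67 to 5.02, limma adjusted p = 0.000194) and 11.3-fold with JPX-0700 (3.50 ± 0.56, 2.33 to 4.67, adjusted p = 0.000498). With 1 library left out the log2 fold change stayed between 3.72 and 4.06 with JPX-0750 and between 3.20 and 3.71 with JPX-0700, the narrowest ranges among the 3 genes that rose. FOS lies on chromosome 14 (75278828 to 75282230, plus strand).

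FOSB encodes a FOS protein whose truncated isoform accumulates in neurons under repeated stimulation, and its immediate early induction resembles that of FOS. It had 318, 255 and 295 normalised counts with JPX-0750 (93, 56 and 177 reads), 230.4, 198 and 811 with JPX-0700 (50, 53 and 292 reads), and 0, 0 and 1.62 with DMSO (0, 0 and 3 reads). FOSB was thus all but undetected with DMSO and present in every treated library. Scaled for depth, the ratio of reads was 545 with JPX-0750 (95% counting interval 185 to 2657) and 869 with JPX-0700 (295 to 4233). These intervals cover counting error only. On the log2 scale FOSB rose by 7.71 ± 0.93 with JPX-0750 (limma adjusted p = 2.37e-05) and by 7.92 ± 0.93 with JPX-0700 (adjusted p = 1.91e-05), sizes that depend on the pseudocount. Without JPX-0700 replicate 3, its highest library, the JPX-0700 value was 7.28. FOSB (chromosome 19, 45467996 to 45475179, plus strand) overlaps ERCC1 on the other strand. ERCC1 had 123, 86.4 and 142 normalised counts with JPX-0750, 50.7, 93.2 and 2.78 with JPX-0700, and 181, 222 and 119 with DMSO. The JPX-0750 and DMSO libraries thus overlapped for ERCC1, and the JPX-0700 libraries lay below those of DMSO. The strand counted is not stated, and whether reads of one gene were counted to the other was not tested.

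FOSL1 and FOSL2 encode the FRA proteins, FOS relatives that lack the strong activation domains of FOS and usually follow it in time. FOSL1 (chromosome 11, 65892049 to 65900545) had 24.0, 27.3 and 1.67 normalised counts with JPX-0750, 18.4, 7.45 and 2.78 with JPX-0700, and 0, 36.0 and 28.5 with DMSO, from at most 7 reads in any treated library. Its groups overlapped, and the log2 fold changes were 0.26 ± 1.65 with JPX-0750 (limma adjusted p = 0.963) and -0.27 ± 1.65 with JPX-0700 (adjusted p = 0.944). FOSL2 (chromosome 2, 28392858 to 28417317) had 58.2, 86.4 and 6.66 normalised counts with JPX-0750, 73.7, 78.3 and 0 with JPX-0700, and 9.88, 30.7 and 38.2 with DMSO. In each compound group replicates 1 and 2 lay above all DMSO libraries and replicate 3 below them. The log2 fold changes were 0.52 ± 1.60 with JPX-0750 (adjusted p = 0.916) and -0.40 ± 1.60 with JPX-0700 (adjusted p = 0.914), and that with JPX-0700 was 1.69 without JPX-0700 replicate 3. FOSL2 overlaps the antisense gene FLJ31356. For both genes the 95% intervals spanned more than 6 log2 units, so that changes of several fold in either direction were not detectable in these libraries. The standard error was 0.65 for FOSL1 and 0.46 for FOSL2 without the 3 libraries that detected the fewest genes, where the log2 fold changes were -0.32 with JPX-0750 and -1.37 with JPX-0700 for FOSL1, and 1.03 with JPX-0750 and 1.13 with JPX-0700 for FOSL2.

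BATF and BATF3 encode small zipper proteins without an activation domain, best known from T cells and dendritic cells. BATF (chromosome 14, 75522469 to 75546992) had 89.0, 109 and 66.6 normalised counts with JPX-0750, 32.3, 82.0 and 38.9 with JPX-0700, and 157, 49.5 and 42.0 with DMSO. Its groups overlapped, with log2 fold changes of 0.32 ± 0.84 with JPX-0750 (limma adjusted p = 0.900) and -0.55 ± 0.84 with JPX-0700 (adjusted p = 0.747), and of 1.10 with JPX-0750 and 0.17 with JPX-0700 without the 3 libraries that detected the fewest genes. BATF3 (chromosome 1, 212686417 to 212699840) had 34.2, 4.55 and 13.3 normalised counts with JPX-0750, 13.8, 22.4 and 389 with JPX-0700, and 0, 10.4 and 11.3 with DMSO. A single library, JPX-0700 replicate 3, held 140 of the 149 BATF3 reads of its group. The BATF3 log2 fold changes were 1.44 ± 1.58 with JPX-0750 (adjusted p = 0.722) and 3.31 ± 1.58 with JPX-0700 (-0.01 to 6.63, adjusted p = 0.258), and that with JPX-0700 was 1.84 without JPX-0700 replicate 3. With 1 library left out the BATF3 values ran from 0.25 to 2.11 with JPX-0750 and from 1.84 to 4.20 with JPX-0700, the lowest with JPX-0750 being that without DMSO replicate 1, and without the 3 libraries that detected the fewest genes they were 0.24 with JPX-0750 and 0.65 with JPX-0700.

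Of the 9 members, 4 lay with JPX-0750 wholly above DMSO, library by library, against 19.7% of all genes tested, and 5 lay with JPX-0700 wholly above DMSO, against 16.5%. JUN, JUNB, FOS and FOSB were the 4, and BATF3 was added with JPX-0700, where replicate 1 had 3 BATF3 reads. No member lay wholly below DMSO, against 9.18% and 10.3%, so that the shares of all genes on either side were 28.9% and 26.9%. These counts and shares hold for normalised counts only. In RPM, JUN, FOS and FOSB stayed wholly above DMSO, but JUNB overlapped it with both compounds. BATF3 overlapped it too, with 4.06, 6.73 and 75.6 RPM with JPX-0700 and 0, 4.28 and 5.20 RPM with DMSO. JPX-0700 replicate 3 had the highest level of all 9 libraries for JUN, JUNB, JUND, FOSB and BATF3, but not for FOS, and had no FOSL2 read. Member genes together took 0.144% to 0.168% of reads with JPX-0750, 0.175% to 0.342% with JPX-0700 and 0.0522% to 0.0931% with DMSO, and the upper end with JPX-0700 was again replicate 3. Without the 3 libraries that detected the fewest genes, the log2 fold change of JUN was 7.01 with JPX-0750 and 7.53 with JPX-0700, that of FOS 4.16 with JPX-0750 and 3.86 with JPX-0700, and that of FOSB 7.47 with JPX-0750 and 7.05 with JPX-0700, with limma adjusted p of 0.00166 or less. The same 3 genes rose in that fit.

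**Figure D2:**
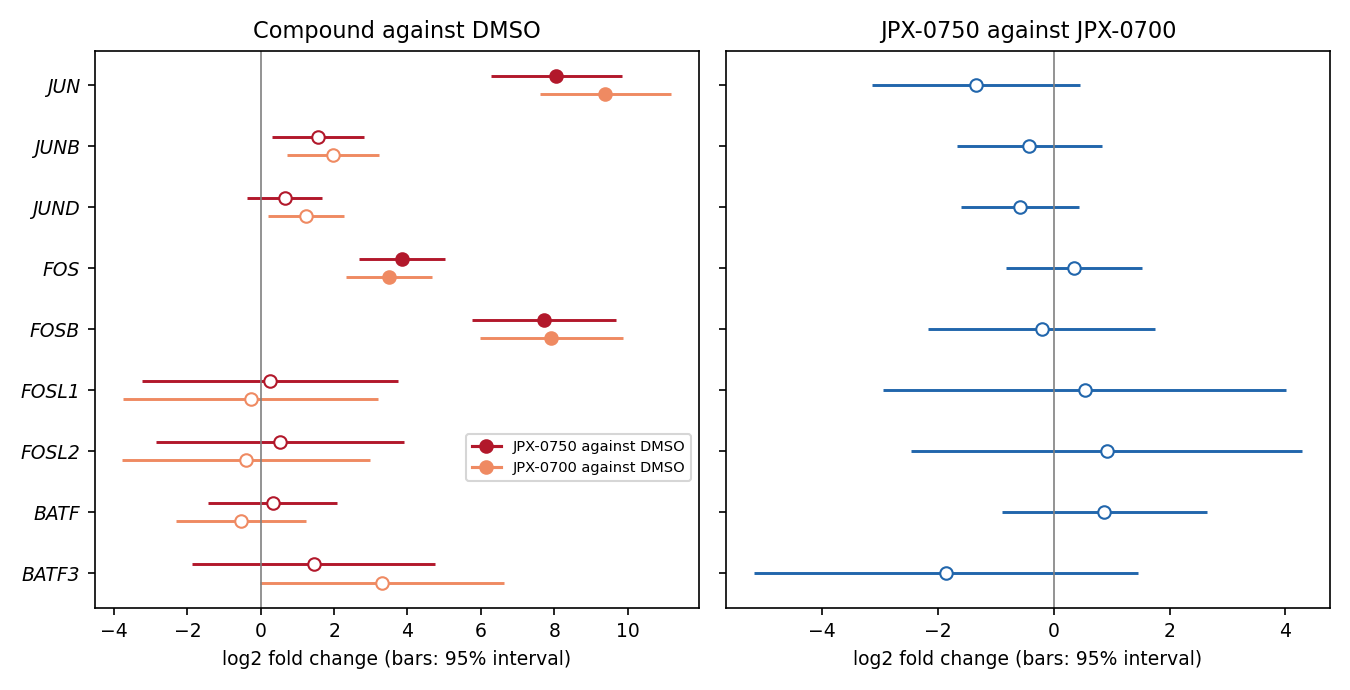
Log2 fold changes of the 9 AP-1 genes with 95% intervals from limma (n = 3 libraries per group). The left panel shows JPX-0750 and JPX-0700 against DMSO, with filled points at adjusted p under 0.05, and the right panel shows JPX-0750 against JPX-0700. JUN, FOS and FOSB are filled for both compounds, and every interval of the right panel includes 0.

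The direct comparison of the compounds, made at 24 h with doses that the labels do not give, found no member that differed. Between JPX-0750 and JPX-0700 0 of 9 members passed the limma test, against 0.00% of all genes tested, and 0 of 9 had an unadjusted p under 0.05, against 3.21% of all genes. The count was 0 with voom as well. JUN averaged 1836 ± 684 normalised counts with JPX-0750 and 5056 ± 3376 with JPX-0700 (SD, n = 3 each), a log2 difference of -1.34 ± 0.85 (SE, limma adjusted p = 0.848) whose 95% interval, -3.13 to 0.45, leaves room for a level several times lower with JPX-0750. JUN was the 1 member with no overlap between the compounds, where 8.35% of all genes had none, 3.63% with JPX-0750 wholly below and 4.72% wholly above, and the difference was -0.52 without the 3 libraries that detected the fewest genes. FOS averaged 502 ± 65.1 with JPX-0750 and 411 ± 161 with JPX-0700, with a log2 difference of 0.35 (-0.83 to 1.52). FOSB averaged 289 ± 32.2 with JPX-0750 and 413 ± 345 with JPX-0700, with a difference of -0.21 (-2.17 to 1.75). For JUNB it was -0.42 (-1.67 to 0.83) and for JUND -0.58 (-1.61 to 0.44). The intervals of FOSL1, FOSL2, BATF and BATF3 reached at least 2.64 log2 units on the wider side. Ordered by mean, JUN, JUNB, JUND, FOSB and BATF3 ran from JPX-0700 through JPX-0750 down to DMSO, and FOS from JPX-0750 through JPX-0700 to DMSO, but in neither order did the compounds, which were neighbours, pass the test. FOSL1, FOSL2 and BATF had no neighbours in the order of their means that differed past the threshold.

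**Figure D3:**
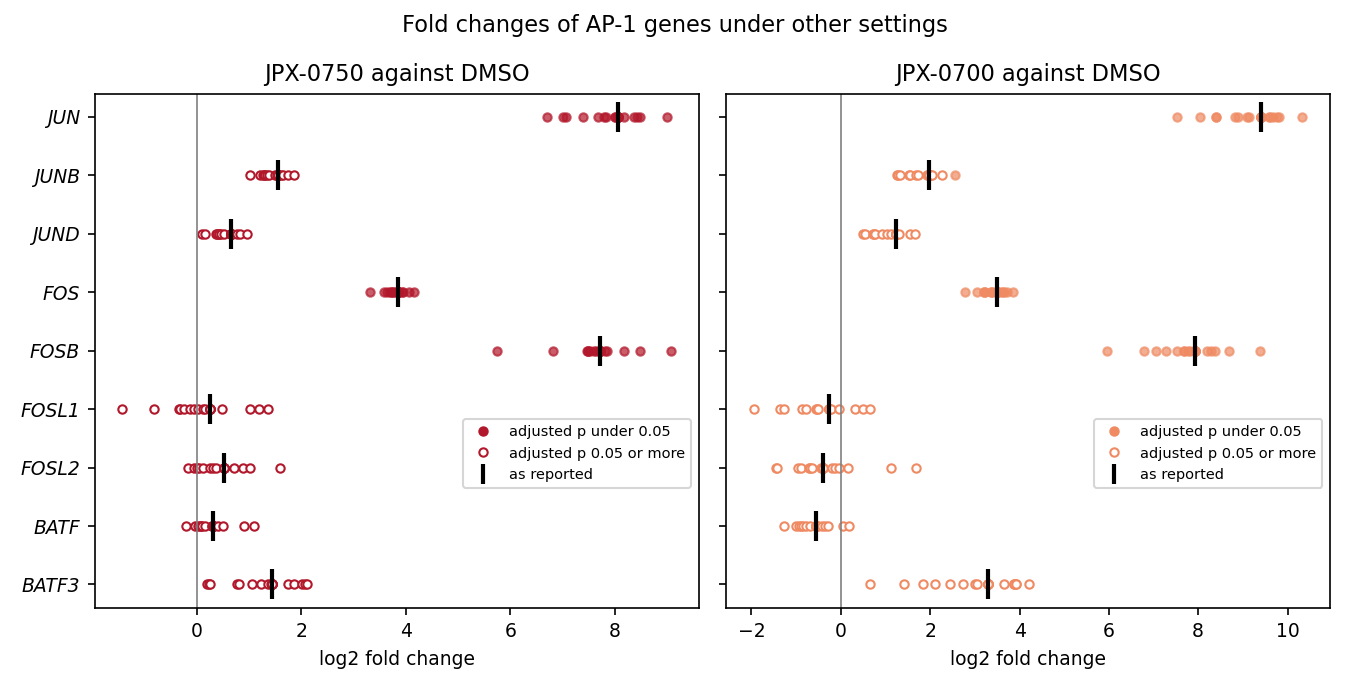
Log2 fold change of each AP-1 gene against DMSO as reported (black bar) and under each alternative setting (circles, filled at adjusted p under 0.05), with JPX-0750 on the left and JPX-0700 on the right. JUN, FOS and FOSB stay filled and above 2.78 under every setting shown, while FOSL1, FOSL2 and BATF fall on both sides of 0.

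The genes whose pattern over the 9 libraries was most like that of a member were found from the root-mean-square difference of log2 values centred on each gene's mean. For FOS they were BTG1, which encodes an antiproliferative protein and gave 0.291, DNAJA4, a co-chaperone (0.327), and TLE4, a corepressor (0.344). All 3 rose with both compounds, BTG1 15.2-fold with JPX-0750 and 10.7-fold with JPX-0700. Genes alike were picked over the same libraries, so the rises given here and below for them follow from that choice. For FOSB they were the small nucleolar RNAs SNORA4 (0.31) and SNORA80B (0.407) and CCDC80, a secreted matrix protein (0.393). For JUN they were the small Cajal body RNA SCARNA21 (0.948), the histone gene HIST1H2AG (1.022) and the small nucleolar RNA SNORD14D (1.052), which were less alike than those of FOS. SCARNA21 had log2 fold changes of 8.54 with JPX-0750 and 8.59 with JPX-0700, and SNORD14D of 9.02 with JPX-0750 and 9.41 with JPX-0700. SCARNA21, SNORD14D, SNORA4 and SNORA80B are structured noncoding RNAs, the class whose share of reads was higher in every treated library than in any DMSO library. Whether that share bears on JUN or FOSB was not tested.

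Most genes around AP-1 did not pass the test, and a few rose strongly with both compounds. The lists around AP-1 were chosen with earlier results of these data known, so the shares given for them here and below are descriptions only. Among 10 tested dimer partners, DDIT3 rose and 0 fell with each compound (10% of them, against 3.90% of all genes tested that rose with JPX-0750 and 5.28% with JPX-0700), with medians of 1.34 (JPX-0750) and 1.32 (JPX-0700). DDIT3 encodes CHOP, a stress-induced zipper protein. It had 561, 623 and 297 normalised counts with JPX-0750, 479, 611 and 411 with JPX-0700, and 0, 10.4 and 16.7 with DMSO. DDIT3 rose 80.4-fold with JPX-0750 (adjusted p = 0.000146) and 84.5-fold with JPX-0700 (adjusted p = 0.000123), and its treated libraries all lay above its DMSO libraries. Without DMSO replicate 1, which had no DDIT3 read, the log2 fold change was 5.05 instead of 6.33 with JPX-0750 and 5.13 instead of 6.40 with JPX-0700, and without DMSO replicate 3 it was 7.13 with JPX-0750 and 7.20 with JPX-0700.

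Of 20 tested kinases of the JNK, ERK and p38 cascades, which act upstream of JUN and FOS, 1 rose and 0 fell with each compound. This is 5% of them, near the 3.90% (JPX-0750) and 5.28% (JPX-0700) of all genes tested that rose, and the medians, 0.07 (JPX-0750) and -0.28 (JPX-0700), lay below those of all genes tested. BRAF, a kinase of the ERK cascade, had 58.2, 40.9 and 110.0 normalised counts with JPX-0750, 69.1, 29.8 and 61.1 with JPX-0700, and 0, 0.383 and 5.92 with DMSO. It rose 30.6-fold with JPX-0750 (limma adjusted p = 0.0362) and 24.1-fold with JPX-0700 (adjusted p = 0.0423). The JPX-0750 call was lost without JPX-0750 replicate 1, 2 or 3, JPX-0700 replicate 1 or DMSO replicate 1 or 2 (adjusted p up to 0.17), and the JPX-0700 call without JPX-0750 replicate 1 or 2, JPX-0700 replicate 1 or 2 or DMSO replicate 1 or 2 (up to 0.157). Total-sum, TMM and protein-coding scaling and the lack of a filter ended both calls too. A fit of only the 6 libraries compared ended the JPX-0700 call (limma adjusted p = 0.106). In all BRAF passed in 10 of 20 alternatives with JPX-0750 and in 9 of 20 with JPX-0700. Its DMSO level rested on 0, 1 and 11 reads. Without DMSO replicate 3 the log2 fold change was 5.79 instead of 4.94 with JPX-0750 and 5.44 instead of 4.59 with JPX-0700.

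None of 11 tested regulators of FOS and JUN transcription passed the limma test with either compound, with list medians of 0.71 (JPX-0750) and 0.47 (JPX-0700). An unadjusted p under 0.05 was found for 0 of them with JPX-0750 and 3 with JPX-0700, against 14.2% and 19.6% of all genes tested. The factors with the smallest unadjusted p were MEF2C, a myeloid MADS box factor, and MKL1, the SRF coactivator now named MRTFA. MEF2C had 414, 446 and 342 normalised counts with JPX-0750, 562, 540.4 and 792 with JPX-0700, and 270.3, 179 and 243 with DMSO. All its treated libraries were above all DMSO libraries, and the log2 fold changes were 0.80 ± 0.46 with JPX-0750 (unadjusted p = 0.0995, adjusted p = 0.451) and 1.45 ± 0.46 with JPX-0700 (unadjusted p = 0.00589, adjusted p = 0.0791). MEF2C with JPX-0700 passed in 4 of 21 alternatives, among them voom (0.0399) and the fit without the 3 libraries that detected the fewest genes (0.0229). MKL1 had 75.3, 146 and 198 normalised counts with JPX-0750, 41.5, 108 and 0 with JPX-0700, and 405, 151 and 67.8 with DMSO, and its groups overlapped. Its log2 fold changes were -0.31 ± 1.30 with JPX-0750 (adjusted p = 0.940) and -3.28 ± 1.30 with JPX-0700 (adjusted p = 0.165). The JPX-0700 value ran from -4.64 without JPX-0700 replicate 2, where it passed the test (adjusted p = 0.0357), to -1.25 without JPX-0700 replicate 3, which had no MKL1 read, and was -0.59 without the 3 libraries that detected the fewest genes.

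Among 8 tested genes of AP-1 protein turnover and repression, FBXW7 rose with each compound and none fell (12.5% of them, against 3.90% of all genes tested that rose with JPX-0750 and 5.28% with JPX-0700), with list medians of 0.999 (JPX-0750) and 0.17 (JPX-0700). FBXW7 encodes the substrate receptor of a ubiquitin ligase that marks JUN for destruction. It had 873, 732 and 568 normalised counts with JPX-0750, 857, 1055 and 509 with JPX-0700, and 216, 148 and 246 with DMSO, so that the lowest treated library was above the highest DMSO library. FBXW7 rose 3.57-fold with JPX-0750 (limma adjusted p = 0.0323) and 3.87-fold with JPX-0700 (adjusted p = 0.0171). Its call with JPX-0750 was lost without JPX-0750 replicate 1 or 2 or any 1 DMSO library (adjusted p up to 0.211), and with JPX-0700 without JPX-0700 replicate 1 or 2 or DMSO replicate 1 or 2 (up to 0.0944). Total-sum scaling (log2 fold changes of 1.30 with JPX-0750 and 1.22 with JPX-0700), protein-coding scaling and quantile normalization also ended both calls. TMM scaling (adjusted p = 0.0832) and the lack of a filter (0.0546) ended the JPX-0750 call. A fit of only the 6 libraries compared ended the JPX-0700 call (0.0631). In all FBXW7 passed in 11 of 21 alternatives with JPX-0750 and in 13 of 21 with JPX-0700.

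Of 8 tested genes of the decay of AU-rich transcripts, the class to which FOS and JUN mRNA belong, ZFP36 rose with each compound and none fell (again 12.5%, against 3.90% and 5.28% of all genes tested), while the list medians were -0.64 (JPX-0750) and -0.63 (JPX-0700). ZFP36 encodes tristetraprolin, which binds AU-rich elements and is itself an immediate early gene. It had 134, 123 and 189.9 normalised counts with JPX-0750, 175, 104 and 158 with JPX-0700, and 22.4, 3.45 and 8.08 with DMSO, without overlap between treated and DMSO libraries. ZFP36 rose 14.97-fold with JPX-0750 (limma adjusted p = 0.0136) and 14.6-fold with JPX-0700 (adjusted p = 0.0116). The call with JPX-0750 was lost without any 1 JPX-0750 library or DMSO replicate 2 (adjusted p up to 0.0833), and with JPX-0700 without JPX-0700 replicate 1 or DMSO replicate 2 (up to 0.0591) or with only the 6 libraries compared (0.0786). Without DMSO replicate 1 the log2 fold change was 4.53 instead of 3.90 with JPX-0750 and 4.50 instead of 3.87 with JPX-0700.

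Of 28 listed AP-1 target genes, 20 were tested, since MMP1, MMP3, MMP9, MMP10, IL6, TNF, SPP1 and FASLG were below the filter. Of these 20, 3 rose and 0 fell with JPX-0750 and 4 rose and 0 fell with JPX-0700, which is 15% and 20% of them, against 3.90% and 5.28% of all genes tested that rose, and the medians were 0.99 and 0.84. DUSP1 encodes a phosphatase that switches off JNK, p38 and ERK. It had 113, 159 and 162 normalised counts with JPX-0750, 179.7, 157 and 386 with JPX-0700, and 0.898, 0 and 1.62 with DMSO (4 reads in all). DUSP1 rose 84.2-fold with JPX-0750 (limma adjusted p = 0.000432) and 130-fold with JPX-0700 (adjusted p = 0.000142), with no overlap of treated and DMSO libraries.

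HMOX1 encodes haem oxygenase, an enzyme of haem breakdown induced by oxidative stress. It had 161, 127 and 56.6 normalised counts with JPX-0750, 253, 626 and 83.4 with JPX-0700, and 0.898, 0.383 and 1.08 with DMSO (4 reads in all). HMOX1 rose 60.3-fold (limma adjusted p = 0.0022) with JPX-0750 and 135-fold (adjusted p = 0.000321) with JPX-0700. Leaving out JPX-0700 replicate 2 gave a log2 fold change of 6.38 for that compound, and leaving out replicate 3 gave 7.83, instead of 7.08. CXCL8 encodes a neutrophil chemokine. It had 116, 50.02 and 115 normalised counts with JPX-0750, 101, 59.6 and 692 with JPX-0700, and 0, 1.92 and 2.15 with DMSO, and its high JPX-0700 value came from replicate 3, as for JUN and FOSB. CXCL8 rose 42.3-fold with JPX-0750 (adjusted p = 0.0117) and 77.6-fold with JPX-0700 (adjusted p = 0.00266). The JPX-0750 call was lost without JPX-0750 replicate 1 or 3 (0.0986 and 0.0573), and that with JPX-0700 was kept, at 6.99 when JPX-0700 replicate 2 was left out and 5.23 when replicate 3 was, instead of 6.28.

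VEGFA, the endothelial growth factor, had 349, 232 and 198 normalised counts with JPX-0750, 433, 362 and 114 with JPX-0700, and 71.8, 36.0 and 58.1 with DMSO. Treated and DMSO libraries did not overlap, and its log2 fold changes were 2.22 ± 0.66 with JPX-0750 (limma adjusted p = 0.0703) and 2.27 ± 0.66 with JPX-0700 (adjusted p = 0.0491). The JPX-0700 call was lost in 8 of 9 fits that left out 1 library and kept without JPX-0700 replicate 3, where the value was 2.87, and in all it held in 5 of 21 alternatives. With JPX-0750 VEGFA passed in 4 of 21, among them the fit without the 3 libraries that detected the fewest genes (log2 fold change 2.61, adjusted p = 0.00667).

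**Figure D4:**
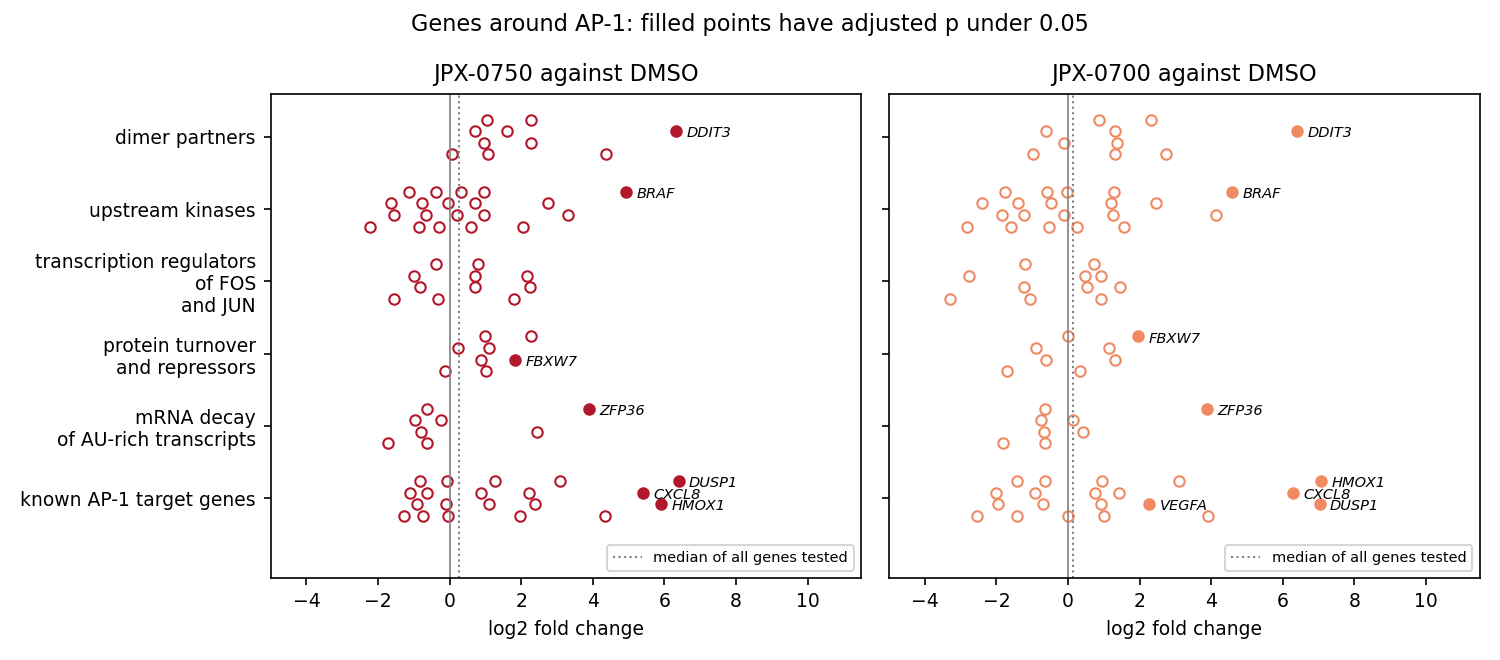
Log2 fold changes against DMSO of the tested genes of 6 lists around AP-1, with JPX-0750 on the left and JPX-0700 on the right. Each circle is a gene, filled where limma's adjusted p was under 0.05 and then named, and the dotted line is the median of all genes tested (0.26 and 0.14). There are at most 4 filled points in any list, and all lie to the right of 0.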

How the data were processed

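RNA of MV4-11 cells was measured in 9 libraries. The submitters' processing notes list, with no roles, the build GRCh38 and the tools STAR 2.4.2a, featureCounts 2.0.3, SAMtools 1.4, FastQC 0.11.9 and DESeq2. No source used here states the strand, the annotation or how multimapping reads were counted. The authors deposited normalised counts of 26929 genes. All values of a library (100%) were whole multiples of its smallest one above 0 (tolerance 1e-06), so whole reads were recovered by division. PCR duplicates were not marked by molecular identifiers in the protocol text.

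The AP-1 members, the lists around them and the tests were chosen with earlier results of these data known. limma 3.58.1 in R 4.3.3 fitted 1 mean per group to log2(normalised count + 1) in all 9 libraries, with variances that follow a trend on expression and 6 residual degrees of freedom. Genes with a mean of at least 5 were tested, 12301 in all, and 14628 were left out, of which 8846 had no read. The two-sided p-values were adjusted by Benjamini-Hochberg over all genes tested, with 0.05 as the threshold. The added 1 shrinks the folds of weakly expressed genes. The code was tested on simulated data. From each list around AP-1 every gene past the threshold with at least 1 compound was named, up to 6 per list, or the 2 with the smallest p where none passed, and for each member that rose the 3 most similar genes. In the list of dimer partners 1 gene is not reported here and is left out of the counts and medians of that list. MKL1, MKL2 and RFWD2 stand in the table for MRTFA, MRTFB and COP1. Symbols were matched to RefSeq, 24159 by symbol and 1498 by synonym, and 1272 found no match.

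Replicate numbers are shared between groups in the labels. Deviations from the group means of libraries with the same number correlated across genes with r = 0.129, 0.171 and 0.19 between JPX-0750 and JPX-0700. For different numbers r ran from -0.198 to 0.153, and JPX-0750 replicate 1 was closer to JPX-0700 replicate 2 (0.153) than to replicate 1. Whether the numbers pair these libraries was therefore not settled. The replicate block did not change a call of the direct comparison. With DMSO the correlations of libraries with the same number were below 0.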

Additional observations from a re-analysis of the deposited data

How the results depend on the processing

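The calls of JUN, FOS and FOSB with both compounds were kept in all 21 alternatives that were run. Across them the log2 fold change ran from 6.70 to 8.99 (JPX-0750) and from 7.53 to 10.33 (JPX-0700) for JUN, from 3.32 to 4.16 and from 2.78 to 3.86 for FOS, and from 5.74 to 9.07 and from 5.95 to 9.38 for FOSB. JUNB with JPX-0700 was past the threshold in 4 of 21: pseudocount 5 (adjusted p = 0.0447), a mean of at least 50 (0.0489), voom on recovered reads (0.0207) and without JPX-0700 replicate 2 (0.0137), over a range of 0.0137 to 0.186. JUNB with JPX-0750 and the other members passed in none. DESeq2 and edgeR, which had been planned, were not run. The scaling to reads on protein-coding genes was chosen after seeing the data. The median of all genes moved with scaling. With JPX-0750 it was 0.26 as deposited, -0.23 with total-sum scaling, 0.01 with TMM, -0.18 with quantile normalization and 0.05 with protein-coding scaling. With JPX-0700 it was 0.14, -0.50, -0.13, -0.18 and -0.25.

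The replicate block left 3, 3 and 0 members past the threshold (JPX-0750 and JPX-0700 against DMSO, and the direct comparison) and ended the call of VEGFA with JPX-0700 (adjusted p = 0.052). Among the members and the named genes it changed no other call, and over all genes 473 passed with JPX-0750 and 694 with JPX-0700. The pairing check gave r = -0.044, -0.075 and -0.121 between JPX-0750 and DMSO, and -0.086, -0.102 and -0.143 between JPX-0700 and DMSO.

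Over all genes 489 passed with JPX-0750 and 710 with JPX-0700. These counts were 945 and 1299 with voom, 795 and 373 with only the 6 libraries compared, 2559 and 2601 without the 3 libraries that detected fewest genes, and 254 to 1096 and 390 to 954 without 1 library. With total-sum scaling the higher and lower calls were 304 and 57 with JPX-0750, instead of 480 and 9, and 378 and 283 with JPX-0700, instead of 649 and 61.

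Without the 3 libraries that detected fewest genes no named call was lost, VEGFA with JPX-0750 (adjusted p = 0.00667) and MEF2C with JPX-0700 (0.0229) were gained, and the log2 fold change was 5.39 and 5.26 for DDIT3, 4.67 and 4.70 for CXCL8, 4.01 and 3.91 for BRAF and 6.41 and 7.88 for HMOX1 with JPX-0750 and JPX-0700 in turn.

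Uncalled differences changed sign under some settings, and the cause was not tested. For FOSL1 with JPX-0750 the value was -0.048 with pseudocount 5, -0.13 with total-sum scaling, -0.82 with quantile normalization, -0.32 without the 3 libraries, and -1.42 to 1.37 without 1 library. FOSL2 with JPX-0750 gave -0.0013 with total-sum scaling and -0.16 to 1.59 without 1 library. FOSL2 with JPX-0700 gave 0.17 with pseudocount 5, 1.13 without the 3 libraries and -1.46 to 1.69 without 1. BATF with JPX-0750 gave -0.21 with total-sum scaling and -0.030 to 0.91 without 1 library. BATF with JPX-0700 gave 0.17 without the 3 libraries and -0.94 to 0.041 without 1. FOSL1 with JPX-0700 gave -1.96 to 0.65, and MKL1 with JPX-0750 gave 0.048 without the 3 libraries and -0.93 to 0.35 without 1. Between the compounds FOSB gave 0.033 with quantile normalization and with protein-coding scaling, 0.41 without the 3 libraries and -0.58 to 0.43 without 1. FOSL2 gave -0.10 without the 3 libraries and -1.17 to 1.99 without 1, FOSL1 -0.064 to 1.64 and JUNB -0.997 to 0.22.

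FOSL1 and FOSL2 had 7 to 40 reads in a treated group. Their lowest treated values fell in the deepest library of each compound, replicate 3, and the parts of depth and of spread between libraries in their wide intervals were not tested.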
